A study of Mus musculus with 14 samples.

Results

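The cells described here are the Cck-high cells of mouse intestinal organoids kept in Isx-9, a small molecule, for 6 days. They were picked by a rule on the counts of unique molecular identifiers (UMIs, 1 per captured transcript): at least 500 genes, at least 1000 UMIs, at most 20% mitochondrial UMIs, Cck at 1% or more of the cell's UMIs, and 0 UMIs of Neurog3. The rule found 222 of the 10016 kept cells of the Isx-9 library. The same thresholds found 80 of 8969 kept cells after DMSO, 108 of 9610 in untreated reporter organoids and 87 of 8745 in untreated wild-type organoids. Organoids are epithelial cultures derived from intestinal crypts, here in ENR medium with EGF, Noggin and R-spondin1. The Isx-9, DMSO and untreated reporter libraries all carry the Chgb-mCherry knock-in, which places a red fluorescent protein at the gene of chromogranin B, and the wild-type library does not. Treatment with 25 µM Isx-9 or 0.05% DMSO began on day 2 after passaging, and the labels give no age, sex or line of the donor animals. A bulk RNA-seq set, 2 libraries per group, came from sorted Lgr5-EGFP knock-in stem cells exposed to DMSO or Isx-9 for 6 hours, and 6 ATAC-seq samples of the series were not analysed here. There was 1 single-cell library per condition, so differences between single-cell libraries have no replicate check, and intervals cover counting error only.

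Cholecystokinin, the product of Cck, is the hormone of the intestinal I cell. It is released after fat and protein reach the gut lumen, contracts the gallbladder, drives secretion of pancreatic enzymes and limits food intake. Enteroendocrine cells arise from progenitors that pass through a short Neurog3-positive stage, and their peptide lineages are controlled by factors such as Neurod1, Pax6, Isl1 and Etv1. In the mouse gut Cck is commonly found in cells that also make other peptides, among them proglucagon (Gcg), secretin (Sct), peptide YY (Pyy), neurotensin (Nts) and ghrelin (Ghrl).

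The promoters of 4 genes on which the results turn are shown, as the 250 bases before the RefSeq transcription start (assembly GRCm38.p6), 5′ to 3′ on the gene's strand. Cck defined the cells, Tac1 and Chgb were higher in the Isx-9 cells, and Gcg was lower. Capitals mark matches on either strand to TGACGTCA (the cAMP response element), TGCGTCA (a variant of it) or CACGTG (an E-box), 3 motifs that do not overlap here and were chosen after these windows were read.
Cck, chr9:121495695-121495944, minus strand: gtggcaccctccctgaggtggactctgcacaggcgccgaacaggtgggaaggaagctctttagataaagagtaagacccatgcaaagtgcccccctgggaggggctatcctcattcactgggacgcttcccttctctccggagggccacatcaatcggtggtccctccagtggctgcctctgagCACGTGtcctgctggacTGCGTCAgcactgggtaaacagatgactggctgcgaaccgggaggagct
Tac1, chr6:7554811-7555060, plus strand: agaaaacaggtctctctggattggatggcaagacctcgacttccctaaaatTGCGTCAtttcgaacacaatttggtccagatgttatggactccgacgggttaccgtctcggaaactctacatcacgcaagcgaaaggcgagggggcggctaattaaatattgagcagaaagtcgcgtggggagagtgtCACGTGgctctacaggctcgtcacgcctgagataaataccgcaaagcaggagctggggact
Chgb, chr2:132781392-132781641, plus strand: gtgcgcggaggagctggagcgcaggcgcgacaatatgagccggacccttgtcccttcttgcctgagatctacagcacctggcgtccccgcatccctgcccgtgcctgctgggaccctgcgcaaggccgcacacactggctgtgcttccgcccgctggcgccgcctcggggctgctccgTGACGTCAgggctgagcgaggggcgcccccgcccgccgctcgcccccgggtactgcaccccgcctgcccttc
Gcg, chr2:62483654-62483903, minus strand: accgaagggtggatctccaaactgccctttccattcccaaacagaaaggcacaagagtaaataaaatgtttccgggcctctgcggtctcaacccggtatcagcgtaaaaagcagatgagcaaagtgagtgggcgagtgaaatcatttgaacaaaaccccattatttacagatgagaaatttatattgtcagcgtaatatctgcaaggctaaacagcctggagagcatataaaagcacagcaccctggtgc
The Cck window held CACGTG starting 66 bases and TGCGTCA starting 49 bases before the start site. The Tac1 window held the same pair, at 61 and 199 bases. The Chgb window held TGACGTCA at 72 bases, and the Gcg window held none of the 3. Of 32851 promoter windows of this length, 1.55% held TGACGTCA, 1.75% held TGCGTCA, 6.02% held CACGTG, and 0.174% held both CACGTG and TGCGTCA. A match describes the letters of the window only.

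The 4 single-cell libraries held 116046871 to 139401464 UMIs in 10830 to 12201 deposited cells. The Cck-high cells had a median of 8491.5 UMIs after Isx-9 and 10333.5, 10030 and 11782 in the DMSO, untreated reporter and wild-type libraries, and their summed UMIs were 2082868, 935420, 1188068 and 1154092. Their median share of mitochondrial UMIs was 5.76% after Isx-9 and 5.18%, 4.49% and 3.91% in the same order of controls. Pairs of libraries shared 32 to 52 cell barcodes, and no barcode was a Cck-high cell in both libraries of a pair. Scrublet called 831 doublets among the kept Isx-9 cells, 15 of them Cck-high, but 0, 0 and 1 in the controls, where the caller did not work, so doublets were left in and their part in the results was tested only as an alternative. Hormone UMIs were also found in cells that should lack them: after thinning to 3000 UMIs per cell, a Cck UMI was found in 15.2% of 191 Isx-9 cells marked by Cym, a stomach protease gene, and in 9.72% of 144 DMSO cells marked by tuft genes. Chgb was found in 36.6% and 10.4% of those cells, and the unthinned shares for Chgb were 75.5% and 14.4% at median depths of 12765.5 and 6081 UMIs.

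The label was checked against the endocrine markers Chga, Chgb and Neurod1. No Isx-9 Cck-high cell lacked UMIs of all 3, and 12 of the 222 had Chgb below 0.1% of their UMIs. In the controls 19 of 80 (DMSO), 23 of 108 (untreated reporter) and 28 of 87 (wild type) were below that level, and 1 untreated reporter cell lacked all 3 markers. The count of cells lacking all 3 could hardly fail after Isx-9, since most Cym cells of that library also held Chgb UMIs. The median Chgb share was 1.72% in Isx-9 Cck-high cells, 0.0116% in Cym cells and 0% in DMSO tuft-marker cells. The part of other cells' RNA in these differences between libraries was not tested. The Cck-high share of kept cells was 2.22% after Isx-9 (95% exact binomial interval 1.94% to 2.52%), 0.892% after DMSO (0.708% to 1.11%), 1.12% in the untreated reporter (0.923% to 1.36%) and 0.995% in wild type (0.798% to 1.23%). The Isx-9 interval lay above all 3 control intervals, but these intervals cover counting error only. With 1 library per condition the spread of the share between cultures is not known. Other endocrine cells, with Chgb at 0.1% or more of UMIs, Cck below 1% and no Neurog3 UMIs, numbered 2360 after Isx-9. In the DMSO, untreated reporter and wild-type libraries they numbered 259, 275 and 296. Relative to these cells, Cck-high cells were fewer after Isx-9 than in every control. A further 89 Isx-9 cells met every Cck-high threshold but carried Neurog3 UMIs, against 0, 1 and 1 cells in the controls. By construction Cck was high: its median share was 2.62% of a cell's UMIs after Isx-9 and 4.44%, 5.20% and 3.80% in the DMSO, untreated reporter and wild-type cells, with highest values of 21.3%, 18.4%, 27.8% and 21.3%.

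The Isx-9 Cck-high cells carried little of the other peptide hormones with which control Cck-high cells were loaded. Another gene of the hormone and amine list reached 1% of UMIs in 37 of the 222 Isx-9 cells (16.7%, 12.0% to 22.2%). This held for 58 of 80 DMSO cells (72.5%, 61.4% to 81.9%), 82 of 108 untreated reporter cells (75.9%) and 72 of 87 wild-type cells (82.8%). Cck was the highest gene of the list in 217 Isx-9 cells (97.7%), but in 46 DMSO cells (57.5%), 62 untreated reporter cells (57.4%) and 32 wild-type cells (36.8%). At least 2 other such genes reached 1% in 2 Isx-9 cells and in 27 DMSO cells.

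Levels are given in CPM, UMIs scaled to the same library total, summed over the Cck-high cells, in the order Isx-9, DMSO, untreated reporter, wild type. Gcg, which encodes proglucagon, the precursor of GLP-1, stood at 463, 27027, 39887 and 74498 CPM. This was 58.3-fold lower after Isx-9 than after DMSO (ratio 0.0171, 95% counting interval 0.0161 to 0.0183). Gcg reached 1% of UMIs in 4 Isx-9 cells and in 36, 54 and 53 control cells, so the difference ran across many cells. Thinned to 3000 UMIs, 10.1% of 217 Isx-9 cells had a Gcg UMI, against 70.8% of 72 DMSO cells (unthinned 11.7% and 76.2%), and 0% of Cym cells and 4.17% of tuft-marker cells. Fewer cells that make a hormone and less hormone RNA per cell cannot be told apart in the summed values.

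**Figure D1:**
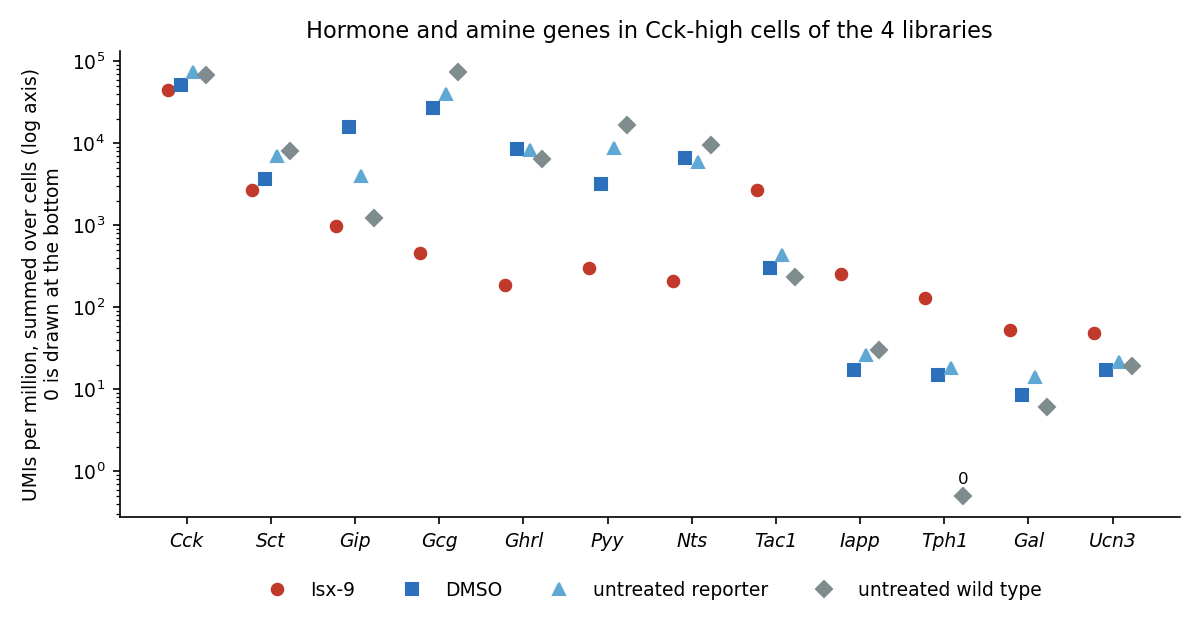
CPM (log axis) of 12 hormone and amine genes, summed over the Cck-high cells of each library; each symbol is 1 library. Isx-9 cells sit below all 3 controls for Gip, Gcg, Ghrl, Pyy, Nts and, by less, Cck and Sct, and above all 3 for Tac1, Iapp, Tph1, Gal and Ucn3.

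Ghrl, the precursor of ghrelin, stood at 191, 8585, 8332 and 6456 CPM, 45.0-fold lower than DMSO. Pyy, an ileal and colonic peptide that slows gut transit, stood at 300, 3239, 8871 and 17001 CPM, 10.8-fold lower. Nts, the precursor of neurotensin, stood at 209, 6668, 6010 and 9647 CPM, 31.9-fold lower. The Isx-9 value lay below every control for these 3 genes. The Nts UMIs came from few cells, 15 with a UMI after Isx-9 and 8 after DMSO, and with Cck at 2% or more of UMIs the log2 ratio of Nts was -1.10 in place of -5.00. Gip, the incretin of K cells, stood at 992, 15862, 3969 and 1223 CPM, so that the Isx-9 value was 15.99-fold below DMSO but close to the wild type, against which the log2 ratio was -0.30. Sct, the precursor of secretin, moved less, at 2701, 3717, 7000 and 8014 CPM (ratio to DMSO 0.727, 0.696 to 0.758).

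Other members of the list were higher. Tac1, the precursor of substance P, typical of enterochromaffin cells, stood at 2744, 301, 431 and 232 CPM, 9.10-fold above DMSO (8.07 to 10.3). It reached 1% of UMIs in 18 Isx-9 cells and in 0 control Cck-high cells (up to 4.51% by the interval for 80 DMSO cells). A Tac1 UMI was found in 65.9% of thinned Isx-9 cells and 23.6% of DMSO cells (unthinned 83.3% and 37.5%), with 15.7% in Cym cells of the Isx-9 library. Tph1, the enzyme that starts serotonin synthesis in enterochromaffin cells, stood at 131, 14.97, 18.5 and 0 CPM. Iapp, the precursor of amylin, stood at 253, 17.1, 26.1 and 30.3 CPM, 14.8-fold above DMSO (9.01 to 26.0). Gal (galanin) stood at 52.8, 8.55, 14.3 and 6.07 CPM. Ucn3 (urocortin 3) stood at 48.5, 17.1, 21.9 and 19.1 CPM. Of 12 measured genes of the 16-gene list, 5 were at least 2-fold higher and 5 at least 2-fold lower than DMSO, all 10 outside the range of the 3 controls. Among all 5517 genes with a mean of at least 25 CPM, 7.41% were at least 2-fold higher and 4.01% at least 2-fold lower, so both shares of the list were above the background. The median log2 ratio of the list was -0.34, and that of all measured genes 0.06. Between control libraries such differences were rarer: 0.463% of genes were 2-fold higher and 0.405% 2-fold lower in DMSO than in untreated reporter Cck-high cells. Against wild type the shares were 1.57% and 1.64% for DMSO and 0.95% and 1.31% for the untreated reporter. Isx-9 Cck-high cells had 7.79% of genes 2-fold higher and 3.7% lower than the untreated reporter, and 9.48% and 4.61% than wild type. The shares both past 2-fold against DMSO and outside all 3 controls were 7.34% higher and 3.81% lower.

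**Figure D2:**
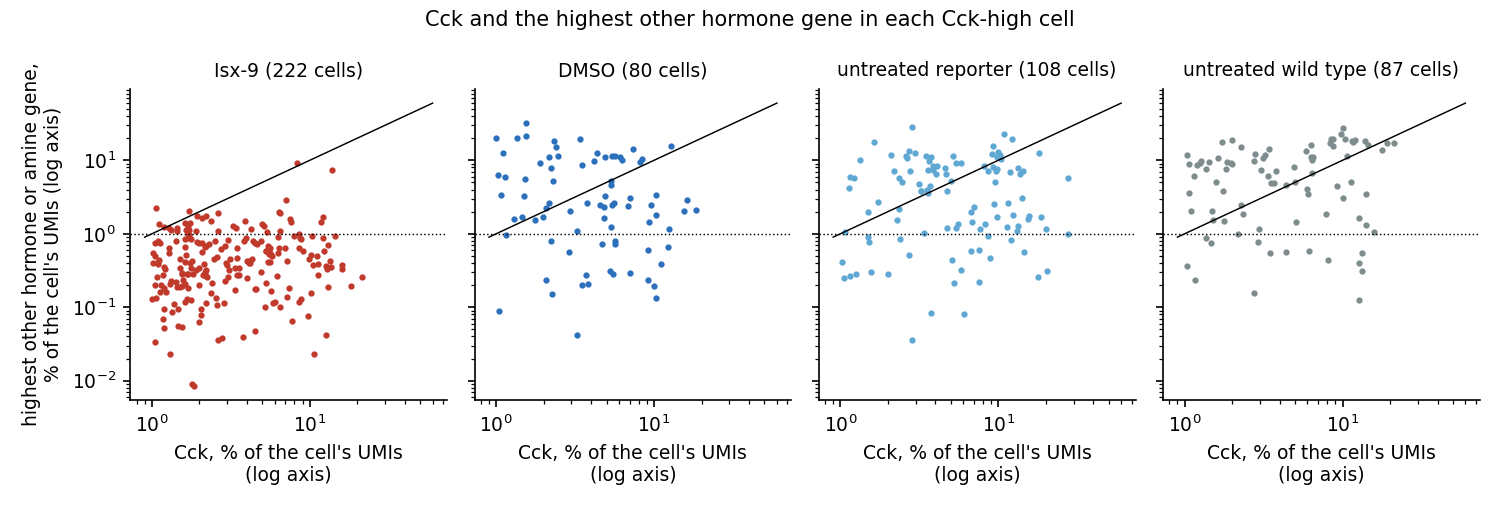
Each point is 1 Cck-high cell: its Cck share of UMIs (x, log axis) against the share of its highest other hormone or amine gene (y, log axis), in the 4 libraries. The solid line marks equal shares and the dotted line 1%; 217 of 222 Isx-9 cells lie below the solid line, against 46 of 80 DMSO cells.

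Because most control Cck-high cells also held another hormone, the comparison was repeated on the cells in which no other gene of the list reached 1%, a restriction chosen after seeing the data. This left 185 Isx-9, 22 DMSO, 26 untreated reporter and 15 wild-type cells. The choice held every other gene of the list below 1% in each cell. The values of those genes were therefore shaped by it and are no independent check of their differences. Among them Gcg was still lower, at 179, 1851, 1557 and 1604 CPM (ratio 0.0967, 0.0840 to 0.111), and Ghrl at 201, 955, 1254 and 697 CPM (0.210, 0.180 to 0.246). Tac1 was still higher, at 1999.5, 590, 700 and 610 CPM (3.39, 2.93 to 3.95). Sct was at 2203 and 2238 CPM in the Isx-9 and DMSO cells (0.984, 0.908 to 1.07). The Gip difference was no longer 2-fold, at 90.6 and 123 CPM (0.737, 0.516 to 1.07). Nts turned, with a log2 ratio of 1.92 on 2 DMSO UMIs. Of all genes measured in this restriction, 9.52% were at least 2-fold higher and 6.09% at least 2-fold lower, and the 22 DMSO cells rest on 317204 UMIs.

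Granins, the acidic proteins that condense hormone in secretory granules, differed in both directions. Chgb, chromogranin B, stood at 18856, 3669, 5352 and 4186 CPM, 5.14-fold above DMSO (4.96 to 5.32), and its median share of a cell's UMIs was 1.72% after Isx-9 against 0.253%, 0.344% and 0.212%. Chga, chromogranin A, stood at 1936, 733, 781 and 952 CPM (2.64, 2.43 to 2.87). Scg2, secretogranin II, was the member that was lower, at 663, 1708, 1941 and 1842 CPM (ratio 0.388, 0.361 to 0.417). In Cym cells of the Isx-9 library Chgb stood at 908 CPM and Cck at 94.9 CPM, and in DMSO tuft-marker cells at 39.9 and 22.6 CPM. The part of free RNA in the granin differences was not tested. Of 11 measured granule genes, 3 were 2-fold higher (Chga, Chgb and Pcsk1n, an inhibitor of the convertase Pcsk1) and 1 was 2-fold lower. In the cells with no other hormone at 1%, Chgb was at 18197 and 3033 CPM (6.00, 5.63 to 6.40), while Chga at a ratio of 1.99 and Scg2 at 0.587 did not reach 2-fold. In those cells 7 of the 11 granule genes were 2-fold higher (Chgb, Scg5, Vgf, Pcsk1n, Ptprn, Ptprn2 and Resp18) and none lower, with a median log2 ratio of 1.21 against 0.62 in all Cck-high cells.

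Genes that mature and release peptides differed less from DMSO than the granins, and the comparison depended on which Cck-high cells were taken. Among 9 measured genes of prohormone processing, 1 was 2-fold higher and 1 lower. Pcsk1, the convertase that cleaves prohormones, stood at 366, 414, 522 and 667 CPM (0.885, 0.782 to 1.003). Cpe, the carboxypeptidase that trims them, stood at 1583, 1599, 1599 and 1473 CPM (0.990, 0.931 to 1.05). Pam, which amidates peptides such as cholecystokinin, stood at 399, 439, 482 and 595 CPM (0.908, 0.806 to 1.02). In the cells with no other hormone at 1% the ratios of the same 3 genes were above 1, at 1.40 for Pcsk1 (1.11 to 1.79), 1.37 for Cpe (1.23 to 1.54) and 1.42 for Pam (1.14 to 1.79). Tpst1, a tyrosine sulphotransferase, the kind of enzyme that cholecystokinin needs for full activity, stood at 28.3, 69.5, 63.1 and 21.7 CPM, so that it was 2.45-fold below DMSO and above the wild type. Of 17 measured exocytosis genes 3 were 2-fold higher, namely Rab3c (2.85-fold), Cplx2 (2.02-fold) and Cadps (2.14-fold), and none lower. In the cells with no other hormone at 1%, 3 of 9 processing genes (Pcsk1n, Scg5 and Cpd) were 2-fold higher and Tpst1 lower, and 5 of 17 exocytosis genes were higher, Snap25 and Rab3b with the 3 above. Of 6 measured ion-channel genes Scn3a, a sodium channel subunit, was 2-fold higher and none lower. Of 8 measured enterochromaffin genes 6 were 2-fold higher and none lower, 5 of them named above (Tph1, Tac1, Ucn3, Chga and Chgb), and the other was the amine transporter Slc18a1.

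**Figure D3:**
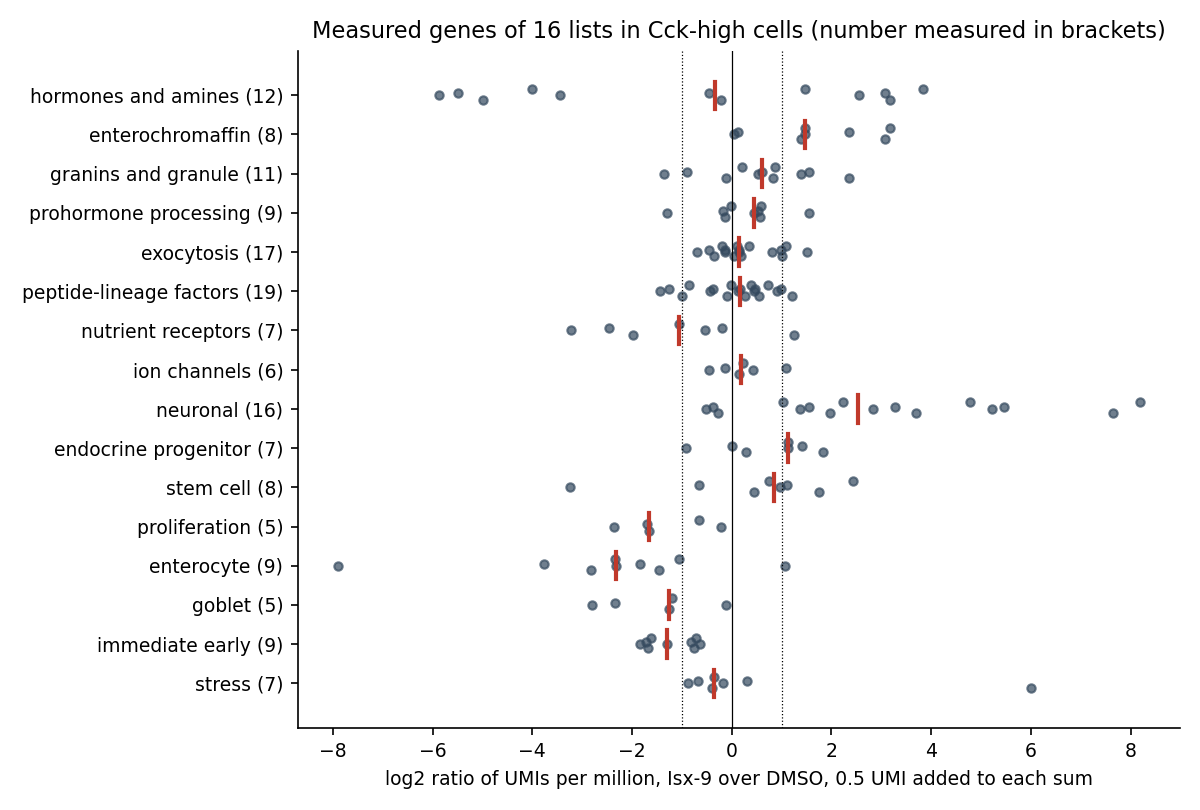
Log2 ratio of CPM, Isx-9 over DMSO, for each measured gene (point) of 16 gene lists in Cck-high cells, with the list's median as a red bar and dotted lines at 2-fold. The neuronal list is shifted to the right (median 2.53) and the enterocyte list to the left (median -2.33).

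Of 19 measured transcription factors of the peptide lineages, 1 was 2-fold higher and 2 were 2-fold lower, with a median log2 ratio of 0.16. Etv1, an ETS factor, stood at 174, 474, 508 and 635 CPM (ratio 0.368, 0.319 to 0.424). Pax6, a paired-box factor, stood at 108, 259, 247 and 231 CPM (0.418, 0.347 to 0.503). Isl1, a LIM-homeodomain factor, stood just short of 2-fold at 145, 291, 265 and 280 CPM (0.5003, 0.423 to 0.591). Each of these 3 was below every control, and the share of thinned cells with an Isl1 UMI was 23.5% after Isx-9 and 55.6% after DMSO (unthinned 33.8% and 78.8%). Among cells with no other hormone at 1% the same ratios were 0.626 for Etv1, 0.618 for Pax6 and 0.574 for Isl1, so that neither 2-fold call held there. Foxa2, Runx1t1 and Tox3 were 2-fold higher in those cells and no factor of the list was lower. Foxa2, a forkhead factor, was the higher one, at 77.8, 33.1, 45.5 and 15.6 CPM (2.35, 1.59 to 3.57). Neurod1 (288, 305, 429 and 438 CPM) and Insm1 (339, 341, 376 and 364 CPM) differed from DMSO by less than 2-fold.

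Sensors of luminal nutrients were mostly lower. Of 7 measured members, 4 were 2-fold lower and 1 was 2-fold higher. Ffar1, a receptor for long-chain fatty acids, stood at 46.1, 183, 227 and 211 CPM (ratio 0.252, 0.194 to 0.326). Gpr119, a receptor for lipid amides, stood at 5.28, 51.3, 38.7 and 59.8 CPM (0.103, 0.0482 to 0.201). Slc5a1, the glucose transporter SGLT1, stood at 36.5, 202, 214 and 368 CPM (0.181, 0.137 to 0.237). Galr1, a galanin receptor, stood at 19.7, 40.6, 47.1 and 37.3 CPM. Ffar2, a receptor for short-chain fatty acids, was higher at 145, 60.9, 95.1 and 65.9 CPM (2.39, 1.79 to 3.23). Among cells with no other hormone at 1%, Ffar1 (0.259) and Slc5a1 (0.345) stayed at least 2-fold lower, and Ffar2 (1.78) did not reach 2-fold.

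Genes best known from neurons had the highest median ratio to DMSO among the lists with at least 3 measured members. Of 16 measured members of 24, 13 were at least 2-fold higher and none lower, with a median log2 ratio of 2.53, and the same median was obtained with the 2 members at 0 in DMSO set to a floor of 3 UMIs. Over all measured genes 7.41% were higher and 4.01% lower. Some members, such as Ncam1, Elavl3 and Gap43, were measured through the Isx-9 cells alone, which favours high ratios in this count and median. Basp1, a growth-cone membrane protein, stood at 306, 6.41, 0 and 2.60 CPM (47.7-fold over DMSO, 21.8 to 130). Uchl1, a neuronal ubiquitin hydrolase, stood at 211, 21.4, 23.6 and 23.4 CPM (9.86, 6.30 to 16.3). Elavl3, a neuronal RNA-binding protein, stood at 102, 3.21, 6.73 and 13.9 CPM, on 3 DMSO UMIs (31.9, 10.8 to 156). Stmn3 was at 188, 13.9, 18.5 and 18.2 CPM, Ncam1 at 59.5, 1.07, 0.842 and 0 CPM, and Mapt (tau) at 72.0, 9.62, 18.5 and 31.2 CPM. All of these were above every control. Stmn2 at 155 CPM and Gap43 at 108 CPM after Isx-9 had 0 UMIs in the control Cck-high cells, and since not every control file lists them, they carry no fold. In the cells with no other hormone at 1%, 14 of 16 measured members were at least 2-fold higher and none lower. Other endocrine cells of the Isx-9 library also held these transcripts, for example Basp1 at 256 CPM and Stmn2 at 164 CPM, against 1.41 and 0 CPM in other endocrine DMSO cells, so they were not confined to the Cck-high cells. In those other cells 6.64% of genes were at least 2-fold higher and 4.09% lower after Isx-9 than after DMSO.

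The 15 genes farthest above DMSO included Stmn2 and Gap43 of that list and 13 genes outside it. Ly6h, a GPI-anchored surface protein, had 918 UMIs (441 CPM) in the Isx-9 cells and 0 in all 3 controls. Snhg11, a noncoding RNA, stood at 233, 0, 0.842 and 0.866 CPM, at least 72.6-fold higher against a floor of 3 DMSO UMIs. Igfbpl1, an IGF-binding-like protein, stood at 141 CPM and at 0 in all 3 controls, at least 44.0-fold higher. Shh, the hedgehog ligand, stood at 69.6, 0, 1.68 and 11.3 CPM, at least 21.7-fold higher. The lectin Reg3b was at 107, 0, 0 and 41.6 CPM, and the glucose transporter Slc2a3 at 97.0, 0, 1.68 and 0 CPM. Wfdc2, a secreted protease-inhibitor-like protein, stood at 238, 1.07, 10.1 and 23.4 CPM on 1 DMSO UMI (222-fold, 39.7 to 8798). Bex4 was at 240, 1.07, 0.842 and 9.53 CPM, Epha5 at 85.9 CPM, Klk8 at 67.7 CPM and Lbp at 62.9 CPM, the last 3 with 0 UMIs in the control Cck-high cells, as had Rcn3 (76.8 CPM) and Fxyd7 (76.3 CPM). All 15 genes were also higher after Isx-9 than after DMSO in the other endocrine cells. Among these, Ly6h stood at 297 against 0 CPM there, Snhg11 at 207 against 0.471 CPM and Wfdc2 at 183 against 2.82 CPM.

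Some early-progenitor and stem-cell genes were higher. Sox4, a factor of endocrine progenitors, stood at 455, 171, 137 and 114 CPM (2.66, 2.25 to 3.17). Sox9, a factor of crypt progenitors, stood at 193, 35.3, 24.4 and 25.1 CPM (5.46, 3.82 to 8.04). Rcor2, Btbd17 and Gadd45a were also above 2-fold, making 4 of 7 measured endocrine-progenitor genes higher and none lower. Among cells with no other hormone at 1% this was 2 of 6, Sox4 and Gadd45a. Lgr5, the stem-cell receptor for R-spondins, stood at 94.6, 27.8, 18.5 and 23.4 CPM (3.403, 2.25 to 5.34) and Smoc2 at 157, 72.7, 51.3 and 37.3 CPM. Leaving out the cells called doublets, which removed 15 Isx-9 cells and no control cell, brought the log2 ratio of Lgr5 from 1.74 to 1.06 and that of Smoc2 from 1.11 to 0.60. Olfm4, another stem-cell gene, was lower at 27.8, 265, 458 and 159 CPM (0.105, 0.0775 to 0.140). Of 8 measured stem-cell genes 3 were 2-fold higher (Lgr5, Smoc2 and Sox9) and 1 was lower. In the cells with no other hormone at 1%, Lgr5 (1.62-fold) and Smoc2 (1.45-fold) did not reach 2-fold, and of 9 measured stem-cell genes Sox9 was 2-fold higher and Olfm4 and Slc12a2 were lower. Of 5 measured proliferation genes 3 were 2-fold lower and none higher.

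Enterocyte and goblet-cell transcripts were mostly lower in the Isx-9 Cck-high cells. Of 9 measured enterocyte genes of 19, 8 were 2-fold lower and 1, Apob, was 2-fold higher. The summed level of the list was 690, 3329, 4456 and 6449 CPM, and 6 of its 19 members were at 0 after Isx-9 and 4 after DMSO. Fabp1, the liver-type fatty acid binding protein, had 0 UMIs in the Isx-9 cells and 53 in the DMSO cells (56.7, 96.0 and 9.53 CPM in the controls), at least 39.3-fold lower against a floor of 3 UMIs. The goblet list summed to 2261, 5104, 4045 and 3509 CPM, with 4 of 5 measured members 2-fold lower, among them Agr2 at 228, 1161, 901 and 547 CPM and Tff3 at 783, 1786, 1409 and 831 CPM. Among cells with no other hormone at 1% only Agr2 of these 5 was still 2-fold lower. No tuft gene was measured, and the 14-gene list summed to 101, 128, 10.9 and 13.9 CPM with 2 members at 0 in both treated libraries. Of 3 measured Paneth genes Lyz1 was 2-fold higher and Defa24 lower. Of 8 measured general epithelial genes 1, the homeobox gene Cdx1, was 2-fold lower. No Notch gene was measured. The list of mesenchymal, immune, endothelial and glial genes summed to 316, 195, 289 and 699 CPM. Vim made up almost all of it in the controls (190, 285 and 688 CPM) and a smaller part after Isx-9 (245 CPM). Of its 13 members, 4 were at 0 after Isx-9 and 10 after DMSO. The part of other cells' RNA in the comparison was not tested.

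Some stress and early-response genes also differed. Of 9 measured immediate early genes, 5 were 2-fold lower and none higher, for example Fos at 65.8, 210, 144 and 136 CPM (0.314, 0.2505 to 0.392) and Junb at 66.3, 203, 194 and 195 CPM. Of 7 measured stress genes only Hspb1, a small heat-shock protein, was past 2-fold, at 171, 2.14, 3.37 and 0.866 CPM on 2 DMSO UMIs (80.2, 22.03 to 665). Clu, the secreted chaperone clusterin, stood at 161, 5.35, 1.68 and 3.47 CPM (30.1, 12.8 to 93.3) and Ly6a at 105, 7.48, 14.3 and 12.1 CPM; these were the 2 measured members of the regenerative list. None of the 6 measured genes of the MEF2 and calcineurin list was past 2-fold. Of 3 measured BMP and ID genes, Bmp7 (2.22-fold) and Id2 (2.17-fold) were higher than DMSO, but Id2 at 142, 65.2, 118 and 178 CPM was below the wild type.

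The genes farthest below DMSO held 5 hormones (Gcg, Ghrl, Nts, Gip and Pyy), the enterocyte gene Fabp1 and the stem-cell gene Olfm4. Among the others were Dmbt1, a mucosal scavenger-receptor protein (0, 50.2, 10.9 and 7.80 CPM), Fap, a serine protease (0.480, 60.9, 68.2 and 79.7 CPM), and the carboxylesterase Ces2a (1.92, 105, 134 and 52.9 CPM). Also among them were Acta1, an actin (5.76, 103, 163 and 32.1 CPM), the Paneth-cell defensin Defa24 (27.4, 416, 517 and 248 CPM), the protease inhibitor Pzp (3.36, 49.2, 37.0 and 17.3 CPM) and the histone gene Hist1h1b (5.28, 57.7, 26.1 and 12.1 CPM). In every one of these the Isx-9 value was below all 3 controls.

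The 222 cells were not uniform, and their make-up changed with their Cck share. They fell into 86 cells with Cck at 1% to 2% of UMIs, 66 at 2% to 5% and 70 at 5% or more. Scg2 stood at 477, 494 and 1051 CPM in these 3 ranges, Isl1 at 94.0, 143 and 212 CPM, and Gcg at 339, 415 and 663 CPM. Gip stood at 13.4, 240 and 2909 CPM, and came from 25 cells with a UMI in all. Chgb stood at 18460.5, 21755 and 16667 CPM, Tac1 at 2952, 3103 and 2152 CPM, and Sox4 at 506, 463 and 384 CPM. In DMSO cells (17, 29 and 34 cells) Scg2 stood at 1183, 1365 and 2243 CPM, Isl1 at 180, 363 and 295 CPM and Gcg at 13527, 33731 and 29104 CPM. In each range the Isx-9 cells held less Scg2, Isl1 and Gcg and more Chgb, Tac1 and Sox4 than the DMSO cells. The ranges are cut from the cells' own counts and carry no test.

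**Figure D4:**
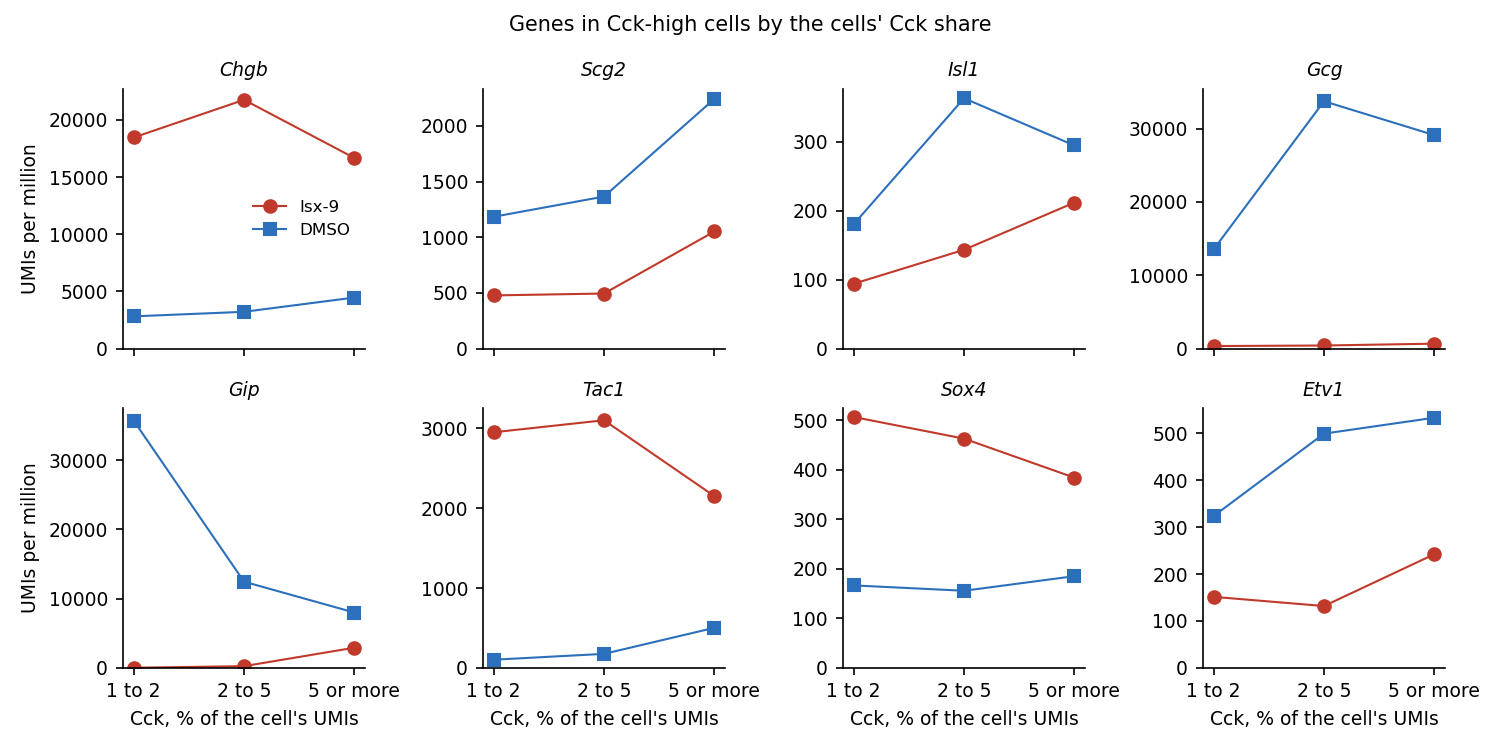
CPM of 8 genes in Cck-high cells split by the cell's Cck share (x, 3 ranges), for Isx-9 (86, 66 and 70 cells) and DMSO (17, 29 and 34 cells); each point is a sum over the cells of 1 library. Isx-9 lies above DMSO for Chgb, Tac1 and Sox4 and below it for Scg2, Isl1, Gcg, Gip and Etv1 in all 3 ranges.

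Cells beside the thresholds resembled those inside in Chgb. The 25 Isx-9 cells just inside the Cck threshold (1% to 1.2%) had Chgb at 23506 CPM, Scg2 at 315 CPM and Tac1 at 3470 CPM. The 36 cells just outside it (0.8% to 1%) had 26975, 355 and 3076 CPM. In the DMSO library 7 and 5 cells lay in these ranges. The 89 Isx-9 cells with Neurog3 UMIs had Cck at 26034 CPM, Chgb at 21689 CPM, Scg2 at 333 CPM, Gcg at 204 CPM and Gip at 3299 CPM.

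Within the Isx-9 library the Cck-high cells were set beside 2360 other endocrine cells, those with Chgb at 0.1% or more of UMIs, Cck below 1% and no Neurog3 UMIs (median 6758 UMIs). These values describe the 2 classes and are no test, since Cck chose both classes and Chgb chose the other endocrine cells. Only 0.919% of 5983 measured genes were at least 2-fold higher and 0.585% at least 2-fold lower in the Cck-high cells. Gcg had the highest ratio (463 against 5.87 CPM, ratio 78.9, 64.5 to 97.5), above Cck itself (44531 against 1158 CPM, ratio 38.5). Next came higher levels of Isl1 (145 against 17.5 CPM, 8.31-fold), Pyy (300 against 37.9 CPM) and Nts (209 against 27.3 CPM). Ghrl (191 against 34.8 CPM) was higher too. The hormones that were low beside control Cck-high cells were therefore still higher than in the other endocrine cells of the same library. Ttr (transthyretin) at 1111 against 229 CPM, the calcium sensor Scgn at 181 against 40.8 CPM, Ffar1 at 46.1 against 10.7 CPM and the atrial myosin light chain Myl7 at 110 against 14.6 CPM were also higher. The remaining genes of the 15 were Agr2, Crybb1, Slc6a19, Fars2 and Hdc. Hdc, which makes histamine, stood at 154 against 30.2 CPM (5.11-fold, 4.43 to 5.87), and at 7.48, 8.42 and 8.66 CPM in the control Cck-high cells.

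The 10 genes farthest below the other endocrine cells were Neb, Pappa2, Defa24, Tpbg, Hist1h2ap, Rab27b, Slc38a11, Itln1, Thbs1 and Nrp2. Pappa2, a protease of IGF-binding proteins, stood at 9.12 against 102 CPM (0.0892, 0.0536 to 0.140). Tpbg, a Wnt-modulating surface glycoprotein, stood at 15.4 against 89.9 CPM, and Rab27b, a small GTPase of vesicle docking, at 12.0 against 47.9 CPM. The enterochromaffin factor Lmx1a was low in the Cck-high cells, at 2.40 against 30.8 CPM, while Tac1 (2744 against 3455 CPM) and Chgb (18856 against 20081 CPM) differed by less than 2-fold between the 2 classes. For Chgb the comparison is shaped by the choice of cells, since only the other endocrine cells had a Chgb minimum.

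Bulk RNA-seq of sorted Lgr5-EGFP stem cells gave a replicated readout of Isx-9 at 6 hours, in other cells and at another time than the Cck-high cells. Total counts were 19487264 and 18909542 after DMSO, against 19025875 and 19431905 after Isx-9. By edgeR's quasi-likelihood test with Benjamini-Hochberg adjustment, 4755 of 17418 genes rose (27.3%) and 3488 fell (20%), and 2062 fell without Isx-9 replicate 1. Of the 24 neuronal genes 19 were tested, 17 rose and none fell, with a median log2 fold change of 5.36 against 0.02 over all tested genes. Ina, an intermediate filament, stood at 1.40 and 1.05 CPM in the DMSO libraries and 56.4 and 48.9 CPM in the Isx-9 libraries (log2 fold change 5.42 ± 0.19, SE; edgeR adjusted p = 5.36e-08). Elavl3 stood at 0.377 and 0.441 against 18.0 and 16.1 CPM (5.36 ± 0.31, edgeR adjusted p = 3.19e-07). Basp1 had 0 counts in both DMSO libraries and 16.2 and 9.43 CPM after Isx-9, at least 171-fold higher if 3 counts are allowed over both DMSO libraries. The 2 groups did not overlap for any of these 3.

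**Figure D5:**
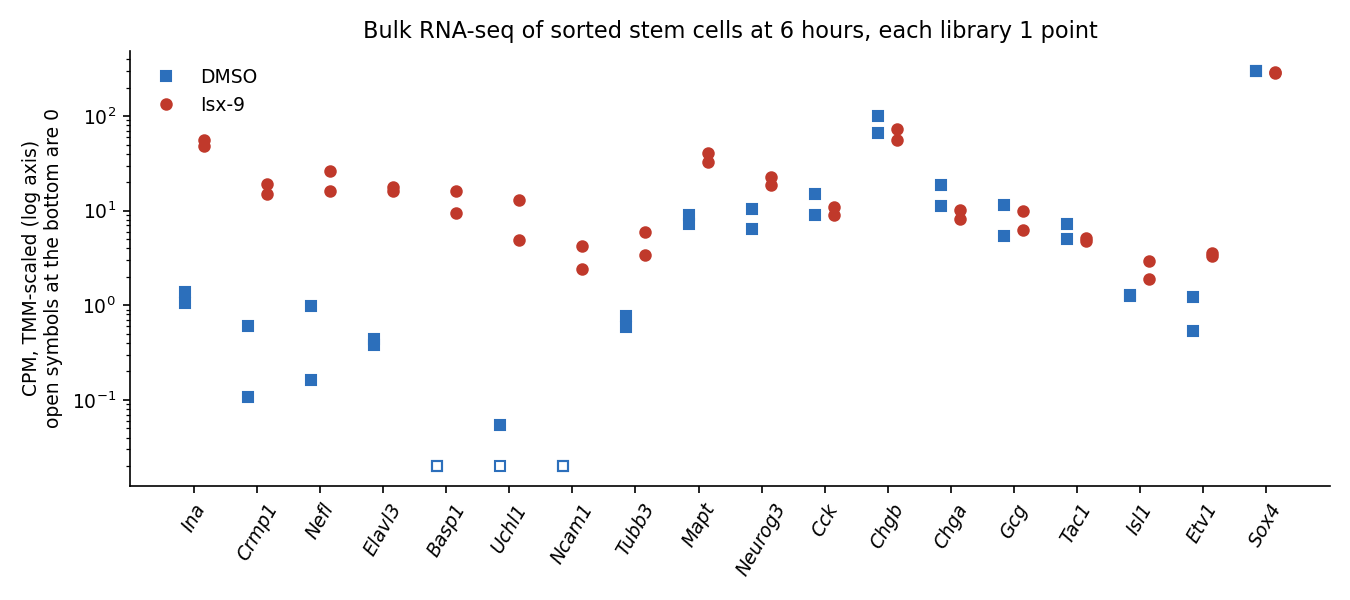
CPM (log axis) of 18 genes in each bulk library of sorted stem cells at 6 hours, DMSO as squares and Isx-9 as circles, with open symbols at 0. The 9 neuronal genes on the left and Neurog3 separate the groups, while Cck, Chgb and Gcg overlap.

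Several other genes that stood high in the Cck-high cells rose in the stem cells, where 27.3% of all tested genes rose. Epha5, Stmn2, Gap43, Fxyd7 and Klk8, also among the 15 genes farthest above DMSO, had too few bulk counts to be tested. Snhg11 went from 1.94 and 1.21 to 48.2 and 38.3 CPM (4.77 ± 0.23, edgeR adjusted p = 1.07e-07). Hspb1 went from 1.238 and 0.771 to 17.5 and 16.5 CPM (4.07 ± 0.29, edgeR adjusted p = 1.31e-06), and Shh from 0.0538 and 0.0551 to 11.9 and 8.18 CPM on 2 DMSO counts. Igfbpl1, Wfdc2 and Reg3b rose as well, by 4.48, 2.94 and 3.72 on the log2 scale. Ly6h had 0 counts in both DMSO libraries and 1.99 and 0.698 CPM after Isx-9. Neurog3 rose from 6.35 and 10.4 to 22.7 and 18.9 CPM (1.31 ± 0.23, edgeR adjusted p = 0.000803).

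Cck, Chgb, Chga, Gcg and Tac1 did not rise at 6 hours. Cck stood at 9.10 and 15.04 against 8.92 and 10.9 CPM (log2 fold change -0.28 ± 0.25, edgeR adjusted p = 0.393), with overlapping groups, a sign that turned without DMSO replicate 2 (0.12), and a fall that passed without DMSO replicate 1 (-0.61, edgeR adjusted p = 0.0465). Chgb stood at 67.1 and 101 against 55.6 and 72.5 CPM (log2 fold change -0.39 ± 0.17, edgeR adjusted p = 0.0847). A fall of Chgb passed without DMSO replicate 1 (edgeR adjusted p = 0.00287) or Isx-9 replicate 2 (0.0414). Chga fell, from 11.3 and 18.7 to 10.1 and 8.23 CPM (-0.71 ± 0.25, edgeR adjusted p = 0.0357), a call lost without DMSO replicate 2, Isx-9 replicate 1 or Isx-9 replicate 2 with DESeq2 (adjusted p = 0.0503) and with no filter on low counts (edgeR adjusted p = 0.12). Gcg (edgeR adjusted p = 0.906) and Tac1 (0.407) did not pass the test. Of 9 tested hormone and amine genes 1, Penk, rose and none fell. Of 10 tested granule genes Pcsk1n rose, from 0.215 and 0 to 1.74 and 0.998 CPM on 4 DMSO counts (edgeR adjusted p = 0.00764), and Chga fell. The Pcsk1n call did not hold when low counts were left unfiltered (edgeR adjusted p = 0.0526) or when Isx-9 replicate 1 was left out (0.12). Of 23 tested peptide-lineage factors 6 rose and 4 fell, shares near the 27.3% and 20% of all tested genes. Etv1, low in the Isx-9 Cck-high cells, rose from 0.538 and 1.21 to 3.59 and 3.29 CPM in the stem cells (1.97 ± 0.49, edgeR adjusted p = 0.00639), a call lost without Isx-9 replicate 1 (0.0536). Of 10 tested prohormone-processing genes 7 rose and none fell, and of 22 exocytosis genes 17 rose and none fell.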

How the data were processed

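Single-cell libraries were made with 10x chemistry and bulk libraries with NEBNext Ultra, a kit that does not mark strand, per the labels' protocols. The authors deposited raw UMI counts per gene and cell, each file listing genes seen in at least 3 cells, and raw read counts per gene for bulk. Per the submitters' processing notes the tools named are Cell Ranger 3.1.0, Seurat 3.1.5, HTSeq 0.12.4, HISAT2 without a version, Trim Galore 0.6.4 and DESeq2 1.24.0, with build GRCm38. UMIs were summed over the Cck-high cells of a library and scaled to a common total (CPM). A gene was measured when the mean of Isx-9 and DMSO was at least 25 CPM, and log2 ratios had 0.5 UMIs added. A gene could therefore be measured through 1 of the 2 groups alone. A difference of at least 2-fold is reported with an exact 95% counting interval, and there is no test between single libraries. Shares have exact Clopper-Pearson intervals, and intervals and floors of 3 counts cover counting error only. For shares of cells with a UMI, each cell was also thinned to 3000 UMIs, which left out 5 Isx-9, 8 DMSO, 13 untreated reporter and 6 wild-type Cck-high cells.

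Bulk counts were tested with edgeR 4.0.16 (quasi-likelihood, TMM scaling, Benjamini-Hochberg adjustment, threshold 0.05) after its filter on low counts, and bulk CPM are TMM-scaled. Standard errors were derived from the log2 fold change and the F statistic. The labels do not say that the 2 libraries per group came from separate cultures, so the spread behind the p-values may be technical. Symbols were found for 27313 of 27399 gene identifiers. Genes named are members of the 25 gene lists, the 15 highest and 15 lowest ratios to DMSO and the 15 highest and 10 lowest ratios to other endocrine cells, and some genes within this rule are not reported here. The cells and lists were chosen with earlier results of these data known. On simulated data of 17418 genes with 200 changed, the bulk test recovered 33% of 1.5-fold, 81% of 2-fold and 94.5% of 4-fold changes. That simulation used the same dispersion for every gene and changed far fewer genes than the data did. The single-cell ratio, on 5517 genes, found 95.5% of 3-fold changes and called 32 to 42 unchanged genes past 2-fold. Doublets were called with Scrublet in scanpy 1.11.5. Alternatives were other Cck, mitochondrial, depth and CPM minimums, no Neurog3 condition, doublet removal, other controls, equal weight per cell, CPM without hormones, more added UMIs, and for bulk RLE factors, DESeq2 1.42.0, no filter, a replicate block and each library left out. Added after seeing the data were the removal of the highest 5% of doublet scores and the restriction to cells with no other hormone at 1%.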

Additional observations from a re-analysis of the deposited data

Results flagged for a closer look

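For 4 genes the Isx-9 value differed from DMSO in opposite directions in Cck-high cells and in other endocrine cells, by at least 2-fold in each. The difference between the 2 classes was not tested, as there is 1 library per condition. Tph1, which starts serotonin synthesis, was higher in Cck-high cells (131 against 14.97 CPM) and lower in other endocrine cells (215 against 1311 CPM), a gap of 5.69 on the log2 scale. Ucn3 stood at 48.5 against 17.1 CPM in Cck-high and 52.0 against 265 CPM in other endocrine cells, a gap of 3.82. Chga stood at 1936 against 733 CPM and 3253 against 7232 CPM, a gap of 2.55. Rab3c stood at 156 against 54.5 CPM and 168 against 499 CPM, a gap of 3.07. After Isx-9 each of these genes was nearer in level between the 2 classes than after DMSO.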

How the results depend on the processing

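The Cck-high share moved with its thresholds, to 3.47% of Isx-9 cells with Cck at 0.5% or more, 1.36% at 2% or more (DMSO 0.702%), 3.11% with no Neurog3 condition and 1.85% with no other hormone at 1% (DMSO 0.245%). With a minimum of 10 CPM 995 genes were 2-fold higher and 407 lower, with 50 CPM 167 and 118, and with no other hormone at 1% 336 were lower. Of 107 named genes past 2-fold, all had the same direction under every alternative but 3: no other hormone at 1% (103), wild type as control (102) and 5 UMIs added (106), and CPM without hormones could be given for 97, all in the same direction. The 2-fold call itself was kept by 88 with no other hormone at 1%, 91 with wild type and 93 with the untreated reporter as control, and by 98 or more of 107 under the other alternatives (91 of 97 without hormones). With no other hormone at 1% the log2 ratio to DMSO turned to 0.18 for Anpep, -0.15 for Neb, 1.92 for Nts and -0.51 for Slc38a11. With wild type as control it turned to 0.10 for Hist1h2ap, -0.33 for Id2 and for the median of the BMP and ID list, 0.14 for Mttp, 0.37 for Tpst1 and -0.53 for Ttr, and with 5 UMIs added to -0.67 for Neb. The cause was not tested.

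In bulk, leaving out each library gave 3599 to 4536 genes that rose and 2062 to 3090 that fell. Over the same fits the log2 fold change of Cck ran from -0.61 (without DMSO replicate 1) to 0.12 (without DMSO replicate 2). That of Gcg ran from -0.52 to 0.59 without the same libraries, and was 0.24 without Isx-9 replicate 1. Libraries with the same replicate number did not deviate together (correlation 0.011). With 2 libraries per group this is a single correlation and cannot show whether the numbers pair them. A replicate block gave 4723 that rose and 3408 that fell, with Chgb (adjusted p = 0.00523) and Pax6 (0.0319) passing in edgeR. DESeq2 called 4303 and 2828. In single cells the depth limits genes with few DMSO UMIs, whose intervals are wide.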
